A study of Mus musculus with 11 samples.

Results

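The regions described here are stretches of the mouse genome that were called as open chromatin in keratinocytes from WT wounds and already in keratinocytes from unwounded *Grhl3* cKO skin, but in neither unwounded WT nor wounded cKO keratinocytes. They were chosen by the peak calls themselves. The 4 ATAC-seq peak lists were concatenated and peaks that touched or overlapped were merged, and a region was kept if it overlapped a peak of the WT wounded and of the cKO unwounded list and no peak of the other pair. Of 42950 merged regions, 5990 (13.9%) met this rule. They were 16.3% of the regions holding a WT wounded peak and 20.5% of those holding a cKO unwounded peak. Presence in or absence from a list is therefore what selected the regions, and it was not tested.

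The study asked what the transcription factor GRHL3 does in epidermal keratinocytes while a skin wound closes. The cKO mice carried Krt14-Cre and floxed *Grhl3* alleles on a C57BL/6 background (C57BL/6J in the methods), the WT controls carried Krt14-Cre as well, and all were littermates of both sexes aged 8 weeks. Krt14-Cre acts in basal keratinocytes and their progeny, so other cells of the skin kept the gene. Wounded samples were the 1 mm margin of 4 mm punch wounds on day 3, unwounded samples were skin away from the wound, and CD49F-positive cells without CD45, CD31 or TER119 were sorted from both. ATAC-seq had 1 library per group, each described as a pool of 4 wounds from 2 mice, so no region value has a replicate. RNA-seq had 2 libraries each of WT unwounded, WT wounded and cKO wounded cells and 1 of cKO unwounded cells, with 13497283 to 16807451 counts per library over 24421 genes. The labels do not say that replicate samples came from separate animals, and if they did not, the p-values measure the spread between these samples only.

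*Grhl3* itself had 1893 and 1398 counts in WT unwounded, 1831 and 1388 in WT wounded, 1029 in cKO unwounded, and 1765 and 1491 in cKO wounded libraries. In CPM, which are counts scaled to library size with edgeR's TMM factors, these were 121 and 80.9, 109 and 90.2, 77.8, and 121 and 103. The cKO unwounded library was the lowest, and the wounded cKO libraries overlapped the WT range. The wounded cKO minus WT difference was 0.17 log2 (SE 0.21), and the unwounded one was -0.37 (SE 0.26). These counts do not separate the targeted exons from the rest of the gene, so "cKO" below means a library labelled cKO. The cKO unwounded library also stood apart in sex-linked RNA, with 14854 *Xist* counts and 0 counts over *Ddx3y*, *Eif2s3y*, *Kdm5d* and *Uty*. The other 6 libraries had 3 to 32 *Xist* counts and 2580 to 3589 counts over those 4 genes. For any RNA difference that rests on this library, genotype, sex and the single sample cannot be told apart. By contrast the 4 ATAC-seq lists held 5 to 10 peaks each on chromosome Y, and the cKO unwounded list held 10.

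As background, GRHL3 is a Grainyhead-like transcription factor that binds DNA in surface epithelia and is known for its part in barrier formation and epidermal closure. AP-1 factors such as FOS and JUN are induced quickly by injury, and their binding sites are frequent in open chromatin outside promoters in keratinocytes. Open chromatin marks where factors can reach DNA, and a region may lie open without a change in the RNA of the gene beside it.

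Each peak carried in column 7 the fold enrichment of its signal over the local background and in column 8 the -log10 of its p-value, as the peak caller MACS2 writes them. Over the members, column 7 in the WT wounded list had a median of 4.0 (quartiles 3.60 and 4.47) and ran from 1.47 to 7.65. In the cKO unwounded list it had a median of 3.66 (quartiles 3.36 and 4.04) and ran from 1.55 to 7.12. Most members were thus modest peaks in both lists. Column 8 had a median of 5.29 in the WT wounded list (3.23 to 14.5) and 4.65 in the cKO unwounded list (3.33 to 13.2). The fold enrichment was higher in the WT wounded list for 4129 members (68.9%), with a median ratio of 1.08 between the lists. The same ratio was 1.07 in the 9524 regions found in all 4 lists and 1.09 in the 8543 missing only from WT unwounded, so other classes leaned the same way. Across the members, the Spearman correlation between the lists was 0.29 for column 7 and 0.24 for column 8, as a description over regions that share their libraries.

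Other kinds of region framed these values. Regions in all 4 lists had median fold enrichments of 5.24 in WT wounded and 4.86 in cKO unwounded, with median -log10 p of 9.55 and 8.18. Regions missing only from WT unwounded had 4.39 and 3.99. The 9852 regions called in WT wounded alone had a median of 3.73, below the members' 4.0. Members therefore lay between the regions called in 1 list and those called in more, in a measure that also decides whether a peak is listed at all. Their median length was 432 bases, against 449 over all regions, 761 in regions of all 4 lists and 276 in those of WT wounded alone.

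The lists differed in length, with 10769 peaks for WT unwounded, 36872 for WT wounded, 29364 for cKO unwounded and 22474 for cKO wounded, and the read depth behind each is not in the files. A listed peak needed a -log10 q just above 1, since the lowest listed were 1.01, 1.03, 1.01 and 1.02 in that order. A weaker signal left no entry, so absence from a list is not a measure of closed chromatin. Applying the same rule after cutting all 4 lists to the length of the shortest gave 577 regions, which overlapped only 149 members (2.49%). With peaks of a fold enrichment of at least 4 it gave 2239, overlapping 1057 members (17.6%), since dropping peaks from the other lists lets further regions in. Most members were thus tied to the lists as deposited. At a q of 0.01 or less, 4815 members (80.4%) kept their WT wounded peak, 3237 (54.0%) their cKO unwounded peak and 2760 (46.1%) both.

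The members nearest the cutoffs show how the rule worked. The weakest by -log10 q was the promoter of *Calca*, which encodes calcitonin and CGRP, at chr7:114635749-114636212, with -log10 q of 2.49 in WT wounded and 1.01 in cKO unwounded. A member near *Med13l* at chr5:119086495-119087379 lay 56 bases from a WT unwounded peak, and one near *Tenm3* at chr8:49158402-49158683 lay 15 bases from a cKO wounded peak. Just outside, a region near *Tnip1* at chr11:54958516-54958938 had fold enrichments of 4.09 and 4.25 but also a cKO wounded peak of 3.01 with a -log10 q of 1.04. Another near *Gm21119* at chr8:20703798-20704520 was left out by a WT unwounded peak of 2.53 with a -log10 q of 1.07. By distance few members were such close calls, with 98 within 1000 bases of a WT unwounded peak and 246 within 1000 bases of a cKO wounded peak. More were close by q, since 46.1% kept both peaks at a q of 0.01 or less. The median distances to these peaks were 41613 and 19384 bases.

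The members with the highest smaller value of column 7 over the pair of lists were of 2 kinds, promoters and sites away from any start. The first was an intergenic region 22053 bases from *Lrrc6*, a gene for assembling motile cilia, at chr15:66522963-66523410, with fold enrichments of 7.03 in WT wounded and 6.90 in cKO unwounded. *Lrrc6* had 0 counts in all 7 libraries, which allows up to 3 counts in each. A region 4386 bases from *Cxcr2*, a receptor for neutrophil chemokines, at chr1:74149258-74149603 had 6.18 and 6.09. A region 179683 bases from *Tfcp2l1*, which encodes a relative of the Grainyhead factors, at chr1:118807629-118807948 had 6.00 and 6.12. It lay 2188 bases from the start of *Gm28467*, which is not annotated as protein-coding. *Cxcr2* and *Tfcp2l1* had few counts, 13 to 91 and 18 to 112. The lowest *Cxcr2* count, 13, was in the cKO unwounded library, against 28 to 91 in the other 6.

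Promoter members among the strongest included *Mief1*, for a mitochondrial outer membrane protein, at chr15:80233676-80234159 with 7.22 and 6.13. *Nol6*, for a nucleolar protein of ribosome assembly, at chr4:41124148-41124530 had 7.61 and 5.94, with -log10 p of 13.6 and 9.75. *H2-K1*, for an MHC class I heavy chain, at chr17:33999950-34000597 had 5.86 and 5.76. RNA of these genes was plentiful in every library, with 347 to 523 counts for *Mief1*, 989 to 1602 for *Nol6* and 11110 to 14108 for *H2-K1*. Their RNA was thus present in the unwounded WT and wounded cKO libraries too, where the promoter peak was not called. *Gsto2*, for a glutathione transferase, was the exception, with a promoter member of 6.25 and 6.15 at chr19:47865476-47865906 and 14 counts in WT unwounded replicate 2 and 0 in the others.

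By place, 1509 members (25.2%, Wilson 95% interval 24.1 to 26.3) lay within 1000 bases of an annotated transcript start, here called promoters. A further 316 (5.28%) overlapped an exon, 2197 (36.7%, 35.5 to 37.9) an intron only, and 1968 (32.9%, 31.7 to 34.0) no gene. Over all merged regions, promoters were 30.1%, introns 33.5% and intergenic places 31.9%. Regions of all 4 lists had 55.4% in promoters, those missing only from WT unwounded 31.2%, and those of WT wounded alone 16.5%. Members were again between the broadly called regions and those of 1 list, a comparison made side by side and not tested. The median distance to the nearest start of a protein-coding gene was 21706 bases in members, 19468 over all regions, 234 in regions of all 4 lists and 27915 in those of WT wounded alone. Within 10000 bases of such a start lay 2194 members (36.6%), and 1017 (17%) lay more than 100000 bases away.

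Members were spread over the genome. Their share of each chromosome's regions ran from 11.9% on X to 16.1% on chromosome 11, where 334 of 2074 regions were members, and the most, 507, lay on chromosome 2. None of the 15 regions on Y or the 2 on the mitochondrial genome was a member. Few members lay close together, with 343 neighbouring pairs within 10000 bases. The median GC content of the central 300 bases was 50%, against 50.3% over all regions and 56.0% in regions of all 4 lists. At least 5 CpG pairs in that window were found in 52.6% of members and 53.6% of all regions.

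The members had 4241 nearest protein-coding genes, of which 3173 had 1 member and 72 had 5 or more. *Auts2*, for a nuclear regulator with a role in brain development, had the most with 10, followed by *Asap1*, *Epha4*, *Jag1* and *Klf5* with 8 each. *Auts2* RNA was 88.6 and 85.0 CPM in WT unwounded, 95.6 and 106 in WT wounded, 137 in cKO unwounded, and 123 and 117 in cKO wounded libraries. All 3 cKO libraries were above all 4 WT ones. *Jag1*, for a Notch ligand, was 247 and 254, 312 and 346, 279, and 259 and 245 CPM in the same order. The WT wounded pair was above every other library, at 0.39 log2 over WT unwounded (unadjusted P 0.0224) and with wounded cKO -0.38 from it (P 0.0255). Without WT wounded replicate 2 these P were 0.135 and 0.146. Large genes with distant neighbours collect more members by this way of counting.

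Members were also counted near genes at the centre of the study, without a background count for other genes. Within 100000 bases, *Grhl3* had 3, the nearest 1756 bases from its start at chr4:135575386-135575768, with fold enrichments of 4.03 in WT wounded and 3.28 in cKO unwounded. *Itga5*, for an integrin fibronectin receptor subunit, had 2, of which the promoter member at chr15:103366487-103366834 had 3.51 and 4.38. *Krt14*, for a basal keratin, had a weak promoter member at chr11:100207619-100207803, with 3.29 and 3.15. *Krt6b* had 3 within that distance, the nearest 14049 bases away in the *Krt6a* promoter at chr15:101694336-101694679 (4.37 and 3.91). *Fscn1* had 3 no nearer than 57330 bases, *Pdpn*, *Krt16*, *Krt17*, *Krt1* and *Arhgef19* had 1 each, and *Cdh1* had none within 215345 bases.

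Short sequence matches were counted in the central 300 bases of every region, on both strands, as a description of letters and not of binding. The AP-1 letters TGANTCA were in 1771 members (29.6%, Wilson 95% interval 28.4 to 30.7) and in 27.6% of all regions. The GRHL letters AACNNGTT were in 427 members (7.13%, 6.50 to 7.81) and in 6.36% of all regions. Outside promoters the AP-1 share was 35.9% (34.5 to 37.3) in members, 35.6% over all regions, 42.7% in regions of all 4 lists and 31.9% in those of WT wounded alone. For the GRHL letters these shares were 8.17% (7.40 to 9.01), 7.54%, 8.21% and 7.19%. The members' shares were thus near those of all regions for both. TEAD letters GGAATG were in 18.8% of members and 17.9% of all regions, RUNX letters TGTGGT in 18.3% and 18.1%, ETS letters CCGGAAG in 4.97% and 5.31%, and SP/KLF letters GGGCGG in 21.6% and 24.4%.

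The central windows of 5 members are printed to show what such regions look like: 3 of the strongest distal members, 1 strong CpG-rich promoter, and 1 in a gene whose RNA is described below. All are on the plus strand of mm10, 5′ to 3′, with capitals marking AP-1 (TGANTCA) and GRHL (AACNNGTT) letters. They are chr15:66523037-66523336 near *Lrrc6*, chr1:74149281-74149580 near *Cxcr2*, chr1:118807639-118807938 near *Tfcp2l1*, chr4:41124189-41124488 at *Nol6* and chr6:147260894-147261121 in *Pthlh*. *Tfcp2l1* held 3 AP-1 matches, *Pthlh* 2, and *Lrrc6* and *Cxcr2* 1 each, and *Cxcr2* also held 1 GRHL match. *Nol6* held neither and had 21 CpG pairs.
Lrrc6: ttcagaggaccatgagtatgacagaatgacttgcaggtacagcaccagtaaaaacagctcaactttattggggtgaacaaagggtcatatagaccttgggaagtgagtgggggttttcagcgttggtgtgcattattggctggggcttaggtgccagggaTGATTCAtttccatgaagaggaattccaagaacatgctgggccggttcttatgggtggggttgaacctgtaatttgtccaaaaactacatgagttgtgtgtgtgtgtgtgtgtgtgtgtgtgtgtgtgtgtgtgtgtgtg
Cxcr2: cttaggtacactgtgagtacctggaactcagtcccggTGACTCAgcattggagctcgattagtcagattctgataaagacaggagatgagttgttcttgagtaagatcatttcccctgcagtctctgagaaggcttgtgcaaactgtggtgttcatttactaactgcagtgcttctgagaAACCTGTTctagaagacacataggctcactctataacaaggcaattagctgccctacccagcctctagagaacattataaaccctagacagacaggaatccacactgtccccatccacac
Tfcp2l1: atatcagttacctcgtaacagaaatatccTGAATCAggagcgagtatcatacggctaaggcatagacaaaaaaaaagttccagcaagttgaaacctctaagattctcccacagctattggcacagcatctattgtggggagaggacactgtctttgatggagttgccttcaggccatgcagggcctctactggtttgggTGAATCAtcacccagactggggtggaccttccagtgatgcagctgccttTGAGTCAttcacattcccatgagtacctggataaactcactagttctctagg
Nol6: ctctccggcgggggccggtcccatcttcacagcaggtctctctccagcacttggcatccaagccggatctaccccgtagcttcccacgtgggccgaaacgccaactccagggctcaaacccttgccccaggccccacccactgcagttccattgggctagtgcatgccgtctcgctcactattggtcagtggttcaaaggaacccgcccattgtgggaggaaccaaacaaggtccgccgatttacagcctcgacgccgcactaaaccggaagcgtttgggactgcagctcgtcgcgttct
Pthlh: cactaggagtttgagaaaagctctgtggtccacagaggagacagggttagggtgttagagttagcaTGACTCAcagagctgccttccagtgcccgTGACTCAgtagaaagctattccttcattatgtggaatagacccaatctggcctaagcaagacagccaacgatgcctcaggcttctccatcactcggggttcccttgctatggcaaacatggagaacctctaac

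For RNA, 4146 of the 4241 nearest genes (97.8%) were matched to the count table, and 3586 of these (86.5%) had enough counts to be tested. At 0 in every library were 322 of the matched genes (7.77%), against 8141 of all 24421 listed genes (33.3%). The listed genes include ones that are not protein-coding, so these shares also differ by type of gene. The tested nearest genes were nearest to 5197 members, and 1813 of these genes (50.6%) were also nearest to a region of all 4 lists. The median level of the tested nearest genes was 30.7 and 31.2 CPM in WT unwounded, 30.4 and 31.5 in WT wounded, 31.0 in cKO unwounded, and 31.0 and 31.7 in cKO wounded libraries. No group stood apart in this median. Genes with a member in the promoter, 1314 of those tested, ranged from 26.7 to 28.6 CPM. The median over all tested genes was lower, from 16.63 to 17.83 CPM across the libraries. Over tested protein-coding genes it was 18.74 to 20.03 CPM. In these bulk libraries, fewer cells of a type and less RNA per cell cannot be told apart.

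Markers of the sorted cells were read in every library. Basal keratinocyte markers summed to between 30659 and 44847 CPM over 6 genes, led by *Krt14*, and suprabasal markers to between 3677 and 9719, led by *Krt1*. Endothelial markers, 6 genes led by *Flt1*, summed to 0.957 and 2.89 CPM in WT unwounded, 27.1 and 16.8 in WT wounded, 0.831 in cKO unwounded, and 11.8 and 8.56 in cKO wounded. Mural markers, led by *Acta2*, were 1.28 and 3.82, 30.4 and 12.3, 1.13, and 3.96 and 8.84. Both were higher in every wounded library than in any unwounded one and low beside the keratinocyte sums. Leukocyte markers, led by *Cd74* and with *Cd3e* at 0 throughout, were 7.34 to 36.1, fibroblast markers, led by *Col3a1*, 11.3 to 46.7, and melanocyte markers, led by *Mitf*, 24.8 to 55.1. Erythroid markers stayed at or below 0.907, with 5 of 6 genes at 0. None of the endothelial, mural, fibroblast or melanocyte genes was at 0 in all libraries.

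The 5 comparisons of RNA were fitted with edgeR over all 14045 tested genes, and they share libraries, so their values are given side by side and not as support for each other. Where nearest genes are counted at unadjusted P under 0.05, the share of all tested genes past the same cut is given as the background. That background was not matched for RNA level, and nearest genes had the higher median level in every library. The part of this difference in the shares was not tested. Genes named for the largest rises and falls had to have compared groups that do not overlap, so that separation was a condition of the choice.

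The WT wounding comparison asked whether genes beside regions listed in WT wounded and not in WT unwounded cells differed in RNA. At unadjusted P under 0.05, 160 nearest genes (4.46%) were higher in WT wounded than in WT unwounded libraries, against 3.18% of all tested genes, and 74 (2.06%) were lower, against 1.67%. The share higher was 4.87% for genes nearest to regions of WT wounded alone and 4.13% for those missing only from WT unwounded. For regions of all 4 lists it was 3.10%. The excess was thus not particular to genes of the members. The median log2 difference was 0.02 in nearest genes and 0.00 in all. After Benjamini-Hochberg adjustment in the edgeR quasi-likelihood test, 2 nearest genes passed at 0.05 (0.0558%), against 0.0285% of all tested genes. For most nearest genes no RNA difference with wounding was detected. The number that passed was 0 without WT unwounded replicate 2, without the cKO unwounded library or without either cKO wounded replicate, 1 without WT unwounded replicate 1, and 13 without WT wounded replicate 1. With at least 10 counts in every library it was 0, and with no count filter 46.

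*Pmepa1*, for a membrane protein that dampens TGF-beta signalling, was 41.3 and 45.7 CPM in WT unwounded, 98.6 and 130.3 in WT wounded, 52.4 in cKO unwounded, and 91.1 and 83.7 in cKO wounded libraries. All 4 wounded libraries were above the 3 unwounded ones. It rose by 1.40 log2 (SE 0.20) with WT wounding (edgeR quasi-likelihood test, Benjamini-Hochberg adjusted p 0.0126). Its member lay 30581 bases away at chr2:173307114-173307712, with fold enrichments of 4.11 and 3.35. *Cald1*, for the actin-binding protein caldesmon, was 35.6 and 52.4, 110 and 161, 31.2, and 49.3 and 35.4 CPM. The WT wounded pair was above the other 5 libraries, which overlapped. *Cald1* rose by 1.62 log2 (SE 0.25, edgeR quasi-likelihood test, Benjamini-Hochberg adjusted p 0.0258). It had intronic members at chr6:34624656-34624891 and chr6:34721780-34722148. Leaving out WT unwounded replicate 1 moved the adjusted p (edgeR, Benjamini-Hochberg) to 0.195 for *Pmepa1* and 0.221 for *Cald1*, the largest of the 7 refits. The adjusted value missed 0.05 in 6 of them for each gene, with differences between 1.17 and 1.93 log2 throughout. Mural markers moved alongside *Cald1* in the WT wounded pair, and their part in it was not tested.

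The largest differences short of adjustment rested on few counts. *Sema6d*, for a semaphorin, had 3 counts over the WT unwounded pair and 161 over the WT wounded pair, a ratio of 55.0 (95% counting interval 18.5 to 269). *Flt1*, for a VEGF receptor, had 0.319 and 0.231 CPM before and 5.42 and 6.83 after wounding in WT, 4.44 log2 higher (SE 0.97, P 0.000318). It is also the leading endothelial marker. The sort was set to leave out CD31-positive cells, and whether any remaining endothelial cells account for the *Flt1* difference was not tested. *Hmga2*, for a chromatin protein of growing tissues, was 4.33 log2 higher (SE 1.26), and 3.40 without WT unwounded replicate 1, which had 0 counts against 6 in the other replicate. *Wfdc3*, a protease inhibitor gene, went the other way, with 94 counts over the WT unwounded pair and 1 over the WT wounded pair, a ratio of 91.8 (16.1 to 3663). *Bdnf*, for a neurotrophin and with 3 members, was at -1.55 log2 (P 0.0147), or -0.96 (P 0.198) without WT unwounded replicate 1.

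Wounded cKO against wounded WT compared groups of which only the WT one had the members' peaks. At unadjusted P under 0.05, 99 nearest genes (2.76%) were higher in the cKO and 109 (3.04%) lower, against 1.96% and 2.08% of all tested genes. For genes nearest to regions of WT wounded alone, 2.65% were higher and 3.25% lower. For those missing only from WT unwounded these were 2.02% and 3.06%, and for those of all 4 lists 1.855% and 2.115%. No gene passed after adjustment, among nearest genes or all tested (0% background). In other fits 1 nearest gene passed, with DESeq2 and with edgeR's likelihood ratio test alike, and 23 passed in edgeR with no count filter, so the 0 depends on the fit. The unadjusted total of 208 was 316 without WT wounded replicate 2. After adjustment 5 nearest genes passed without WT wounded replicate 1, 8 without WT wounded replicate 2, and 1 without either WT unwounded replicate. Median log2 differences were 0.01 in nearest genes and -0.01 in all.

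*Cald1* had the smallest P of all tested genes here, at -1.68 log2 (SE 0.25, unadjusted P 5.19e-06, edgeR quasi-likelihood with Benjamini-Hochberg adjusted p 0.0729). *Ppp1r3b*, for a glycogen-targeting phosphatase subunit, was 0.574 and 3.13 CPM in WT unwounded, 16.4 and 5.79 in WT wounded, 0.907 in cKO unwounded, and 1.23 and 0.483 in cKO wounded. Both WT wounded libraries were above the other 5, and the cKO difference was -3.68 log2 (SE 0.85, P 0.000511). *Fbn2*, for fibrillin-2, was at -2.38 (P 0.00928), but at -0.78 (P 0.436) without WT wounded replicate 1. In the other direction, *Apol8*, an apolipoprotein L gene with near copies that make its counts uncertain, was 1.49 and 0.650 CPM in WT wounded and 5.40 and 6.42 in cKO wounded. Its promoter member at chr15:77754987-77755419 had fold enrichments of 3.43 and 3.28. *Angptl7*, for a secreted angiopoietin-like protein, was 2.06 log2 higher (P 0.00441), but 1.11 (P 0.148) without cKO wounded replicate 1.

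Unwounded cKO against unwounded WT compared groups of which only the cKO one had the members' peaks, and it rests on the single cKO unwounded RNA library. That library was assumed to vary like the others, since the fit pools the spread of the replicated groups. At unadjusted P under 0.05, 316 nearest genes (8.81%) were higher in the cKO library, against 5.44% of all tested genes, and 207 (5.77%) were lower, against 6.18%. The median log2 difference was 0.04 in nearest genes and -0.01 in all. After Benjamini-Hochberg adjustment in edgeR, 63 nearest genes (1.76%) passed, 45 higher and 18 lower, against 1.32% of all tested genes (94 higher and 91 lower). Genes nearest to other classes of region also leaned upward, with 8.53% higher for WT wounded alone, 7.96% for those missing only from WT unwounded and 6.78% for those of all 4 lists. The upward lean was therefore shared with genes of other regions. The 63 became 17 without WT unwounded replicate 2, 104 without WT wounded replicate 1, 110 without WT wounded replicate 2, 62 without genes of X and Y, and 219 with no count filter.

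*Akr1c18*, for a steroid dehydrogenase of a family with near copies, was 14.8 and 13.5 CPM in WT unwounded, 12.1 and 6.17 in WT wounded, 322 in cKO unwounded, and 1.30 and 8.63 in cKO wounded. The cKO unwounded library alone was high. *Akr1c18* rose by 4.51 log2 over WT unwounded (SE 0.53, edgeR quasi-likelihood, Benjamini-Hochberg adjusted p 0.000387). Its intergenic member at chr13:4110455-4110851 had fold enrichments of 4.74 and 3.36. *Pknox2*, for a homeodomain factor, was 1.08 and 0.694, 3.28 and 2.53, 13.9, and 4.37 and 3.11 CPM, with the cKO unwounded library again highest. *Pknox2* rose by 3.96 log2 (SE 0.70, edgeR Benjamini-Hochberg adjusted p 0.00935, or 0.0808 without WT unwounded replicate 2). *Angptl7* was 2.11 and 9.55, 2.80 and 1.23, 61.3, and 12.6 and 4.35 CPM, a rise of 3.39 log2 (edgeR Benjamini-Hochberg adjusted p 0.0169).

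Genes that fell in that library included protease inhibitors with near copies, whose counts are uncertain. *Stfa3*, a stefin gene, was 81.7 and 257 CPM in WT unwounded, 71.5 and 186 in WT wounded, 9.60 in cKO unwounded, and 171 and 171 in cKO wounded. Its lowest value by far was in the cKO unwounded library, and the WT replicates lay far apart in both pairs. *Stfa3* fell by 4.14 log2 (SE 0.65, edgeR quasi-likelihood, Benjamini-Hochberg adjusted p 0.00453), and was at -3.09 without WT unwounded replicate 2. *Serpinb3b*, a serpin gene, had 40 and 157 counts in WT unwounded and 0 in cKO unwounded, at least 26.4-fold lower (edgeR Benjamini-Hochberg adjusted p 0.0131, or 0.0562 without WT unwounded replicate 2). *Stfa2* had 2 and 72 counts against 0, at least 9.91-fold lower, and its P of 0.0148 became 0.225 without WT unwounded replicate 2.

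Wounding in cKO skin compared cKO wounded libraries, whose group lacked the members' peaks, with the same single cKO unwounded library. At unadjusted P under 0.05, 204 nearest genes (5.69%) were higher in cKO wounded libraries, against 5.28% of all tested genes, and 235 (6.55%) were lower, against 4.04%. The share lower was 6.56% for genes nearest to regions of WT wounded alone and 6.64% for those missing only from WT unwounded. For regions of all 4 lists it was 4.94%. The downward lean was thus shared with genes of other regions. Median log2 differences were -0.02 in nearest genes and 0.02 in all. After Benjamini-Hochberg adjustment in edgeR, 40 nearest genes passed, 15 higher and 25 lower, against 0.947% of all tested genes (65 higher and 68 lower). That number was 11 without cKO wounded replicate 1, 13 without replicate 2 of that group, 85 without WT wounded replicate 1, 84 without WT wounded replicate 2 and 161 with no count filter. *Akr1c18* fell by 6.02 log2 (SE 0.58, edgeR Benjamini-Hochberg adjusted p 2.93e-05), and was at -5.21 without cKO wounded replicate 1 and -7.95 without replicate 2. *Angptl7* was at -2.85 (P 0.000527). *Sema6d* had 0 counts in cKO unwounded and 91 over cKO wounded, at least 13.8-fold higher, so in that gene wounded libraries of both genotypes were above the unwounded.

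The last comparison took the WT wounding difference minus the cKO wounding difference and so asked whether wounding effects differed by genotype. At unadjusted P under 0.05, 164 nearest genes (4.57%) had a higher value in WT, against 2.94% of all tested genes, and 124 (3.46%) a lower one, against 3.83%. The share higher was 4.69% for genes nearest to regions of WT wounded alone and 4.47% for those missing only from WT unwounded. For regions of all 4 lists it was 3.45%. The excess was thus shared with genes of other regions. The medians were 0.05 log2 in nearest genes and -0.01 in all. After adjustment in edgeR 6 nearest genes passed, 5 higher and 1 lower, against 0.185% of all tested genes (13 higher and 13 lower). This count was 10 without WT unwounded replicate 1, 3 without WT unwounded replicate 2, 25 without WT wounded replicate 2, 1 without cKO wounded replicate 2, 0 with at least 10 counts in every library and 66 with no count filter.

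*Akr1c18* had a difference of wounding effects of 5.39 log2 (SE 0.72, edgeR Benjamini-Hochberg adjusted p 0.00211). The *Stfa3* difference was -4.55 (SE 0.75, edgeR Benjamini-Hochberg adjusted p 0.0189), and its adjusted p in edgeR reached 0.129 without cKO wounded replicate 2. In both genes the cKO unwounded library was the one apart from the other 6.

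*Pthlh*, for parathyroid hormone-related peptide, was 10.3 and 6.77 CPM in WT unwounded, 11.8 and 15.1 in WT wounded, 23.7 in cKO unwounded, and 6.22 and 8.91 in cKO wounded. The WT wounded and cKO unwounded libraries were above the other 4. Genes of this paragraph were chosen for such an order or its reverse, so the order itself is not a result. How many of all tested genes have it was not counted. For *Pthlh* the difference of wounding effects was 2.30 log2 (SE 0.55, unadjusted P 0.000715), and its intronic member at chr6:147260894-147261122 had fold enrichments of 3.90 and 3.16. *Rapgef3*, for a cAMP-activated exchange factor, was 0.766 and 0.694, 4.11 and 8.52, 3.78, and 2.12 and 2.97 CPM. Its difference was 3.67 log2 (SE 1.06, P 0.00334), with a promoter member at chr15:97767539-97768016. *Slc5a1*, for a sodium-glucose transporter, was 10.7 and 14.0, 9.48 and 7.48, 4.69, and 14.8 and 10.6 CPM. This gene had the opposite order, with a difference of -1.98 log2 (P 0.00457). *Ermard*, at 2.75 log2 (P 0.0296), kept an unadjusted P under 0.05 in only 2 of 6 refits that left out a library, with P up to 0.104 without WT wounded replicate 1.

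Gene lists were then read for genes nearest to a member within 100000 bases. Of 21924 annotated protein-coding genes 17.5% had such a member, and 13633 were nearest to some region. Shares of lists are given beside this as descriptions and were not tested. Examples of each list were taken from the genes with the smallest P for the difference of wounding effects. That difference rests on the single cKO unwounded library, so the choice favours genes in which that library stands apart. Of 21 AP-1 and immediate early genes, 15 had such a member and 14 of those were tested. In unwounded cKO against WT, 9 were higher at unadjusted P under 0.05 and 0 lower, against 5.44% and 6.18% of all tested genes. Their median was 0.74 log2, against -0.01 over all tested genes. *Egr1*, for an injury-induced zinc finger factor, was 1519 and 1467 CPM in WT unwounded, 1832 and 1659 in WT wounded, 3336 in cKO unwounded, and 1937 and 1675 in cKO wounded. *Fos* was 1575 and 1581, 1425 and 1685, 3353, and 2123 and 1904, and *Jun* was 2142 and 1784, 2586 and 2069, 3848, and 2667 and 2610. All 3, chosen in this way, were highest in the cKO unwounded library. *Egr1* rose by 1.16, *Fos* by 1.09 and *Jun* by 0.97 log2 (edgeR Benjamini-Hochberg adjusted p 0.00254, 0.00453 and 0.0114). Without WT unwounded replicate 2, *Fos* and *Jun* had adjusted p in edgeR of 0.0607 and 0.189. With WT wounding, 0 of the 14 passed in either direction, against 3.18% and 1.67%. The 5 tested genes of the list without a member had 4 higher and 0 lower, so genes of the list without members were higher too.

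Of the 23 members near genes of the list, 7 lay in promoters, not always of the list gene. *Jun* had members 13997 bases away at chr4:95037817-95038225 (3.41 and 3.43) and 91064 bases away at chr4:95143286-95143903 (4.12 and 4.30), both in introns of neighbouring non-coding genes. *Fos* had a member 36277 bases away, within 1000 bases of the start of another transcript, at chr12:85437169-85437613, with fold enrichments of 4.05 in WT wounded and 5.17 in cKO unwounded, and one 21414 bases away at chr12:85451742-85452476 (3.67 and 3.85). At these 4 members column 7 was higher in cKO unwounded, against the tendency of the members as a whole.

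Of 19 glycolysis and hypoxia genes, 14 had a member within that distance and 13 were tested. In unwounded cKO against WT 0 were higher and 6 lower, with a median of -0.63 log2, against 5.44% and 6.18% of all tested genes. With cKO wounding 8 were higher and 0 lower, with a median of 0.96, against 5.28% and 4.04%. The 5 tested genes of the list without a member went the same way, with 2 lower and a median of -0.52, then 3 higher and a median of 0.65. *Vegfa*, for the vascular growth factor, was 106 and 128 CPM in WT unwounded, 130 and 165 in WT wounded, 44.9 in cKO unwounded, and 139 and 113 in cKO wounded. It was lowest in the cKO unwounded library. *Vegfa* fell by 1.39 log2 against WT unwounded (SE 0.25, edgeR Benjamini-Hochberg adjusted p 0.0111, or 0.0873 without WT unwounded replicate 2). Its member at chr17:46042112-46042350 had fold enrichments of 5.02 in WT wounded and 3.72 in cKO unwounded, the latter near the members' median. *Ldha*, for lactate dehydrogenase, had a promoter member at chr7:46846612-46847262 and was 372 and 510, 362 and 594, 242, and 630 and 395 CPM. Its unwounded difference was -0.87 log2 (P 0.0128), or P 0.0867 without WT unwounded replicate 2, and *Pkm* and *Pgam1* also lost an unadjusted P under 0.05 there, at 0.101 and 0.0899.

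Of 38 actin, contractility and focal adhesion genes, 19 had a member and were tested. With WT wounding 9 were higher and 0 lower, with a median of 0.31 log2, against 3.18% and 1.67% of all tested genes. In wounded cKO against WT 0 were higher and 7 lower, with a median of -0.29, against 1.96% and 2.08%. The 19 tested genes of the list without a member had 3 higher and 0 lower, and 0 higher and 5 lower. In unwounded cKO against WT 1 of the genes with a member was higher and 5 were lower, against 5.44% and 6.18% of all tested genes. The genes with a member had a median of -0.185 log2 there, against -0.01 in all tested genes. With cKO wounding their median was 0.181, against 0.02 in all. For the genes without a member these medians were -0.128 and 0.097. By median, RNA of the list was thus lower in the single cKO unwounded library, whose group had the members' peaks. The mural marker sum given above was also higher in WT wounded than in WT unwounded libraries and lower in cKO wounded ones, and its part in these counts was not tested. *Itga2*, for a collagen-binding integrin subunit, was 20.2 and 21.5 CPM in WT unwounded, 28.0 and 61.9 in WT wounded, 23.6 in cKO unwounded, and 32.7 and 21.8 in cKO wounded. WT wounded replicate 2 alone was high, and the wounding difference of 1.11 log2 (P 0.00394) was 0.42 (P 0.224) without it. *Ptk2b*, for a relative of focal adhesion kinase, was 0.68 log2 higher with WT wounding, and 0.31 (P 0.299) without that library.

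Of 16 keratin and basement membrane genes, 8 had members, 18 in all, and were tested. *Lama3*, for the alpha-3 laminin chain of the basement membrane, had a promoter member with fold enrichments of 5.60 and 3.15. It was 356 and 346 CPM in WT unwounded, 512 and 1125 in WT wounded, 405 in cKO unwounded, and 599 and 472 in cKO wounded. WT wounded replicate 2 stood far above the rest. The wounding difference of 1.22 log2 (SE 0.26, P 0.000234) was 0.54 (P 0.0142) without that library. Against WT wounded, cKO wounded was at -0.61 (P 0.0291), or 0.07 (P 0.729) without it. *Dst*, for a cytoskeletal linker of hemidesmosomes, had 5 intronic members and was 2929 and 2774, 3726 and 2926, 6833, and 3593 and 3754 CPM. *Dst* rose by 1.26 log2 in unwounded cKO (edgeR Benjamini-Hochberg adjusted p 0.00107), where the cKO unwounded library was alone.

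Of 24 wound and stress genes, 8 (33.3%) had a member and were tested. With WT wounding 4 of the 8 were higher and 0 lower, with a median of 0.92 log2, against 3.18% and 1.67% of all tested genes. In wounded cKO against WT 1 was higher and 4 lower, against 1.96% and 2.08%. The 16 tested genes of the list without a member had 5 higher and 0 lower, then 0 higher and 2 lower. In unwounded cKO against WT 2 of the 8 were higher and 4 lower, against 5.44% and 6.18% of all tested genes, so the list was mixed. The 8 genes had a median of -1.045 log2 there, against -0.01 in all tested genes. With cKO wounding their median was 1.414, against 0.02 in all. For the 16 without a member these medians were -1.089 and 1.730. By median, RNA of the list was thus lower in the single cKO unwounded library, whose group had the members' peaks. The endothelial and mural marker sums given above were also higher in WT wounded than in WT unwounded libraries and lower in cKO wounded than in WT wounded ones, and their part in these counts was not tested. *Il24*, for a cytokine of the IL-20 group, had a member in an intron of the neighbouring *Fcmr* at chr1:130880051-130880338 and a promoter member at chr1:130886419-130886830, the latter with fold enrichments of 5.57 and 4.64. It was 3.76 and 2.37 CPM in WT unwounded, 9.30 and 14.9 in WT wounded, 0.453 in cKO unwounded, and 10.8 and 10.4 in cKO wounded. All wounded libraries were above all unwounded ones, so this RNA was lowest in a library whose group had the promoter peak. *Il24* rose by 4.52 log2 with cKO wounding (edgeR Benjamini-Hochberg adjusted p 0.0077, or 0.0544 without cKO wounded replicate 1). *Tnc*, for tenascin-C, was 174 and 342, 315 and 489, 53.6, and 299 and 154 CPM. It fell by 2.27 log2 in unwounded cKO (edgeR Benjamini-Hochberg adjusted p 0.0131, or 0.0802 without WT unwounded replicate 2).

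Of 22 Grainyhead-like and epidermal transcription factor genes, 21 were nearest to some region and 17 (77.3%) to a member, with 34 members. All 17 were tested, and in unwounded cKO 2 were higher and 3 lower, against 5.44% and 6.18% of all tested genes. *Klf4*, for a barrier regulator, was 1332 and 1173 CPM in WT unwounded, 1228 and 1079 in WT wounded, 2369 in cKO unwounded, and 1752 and 1249 in cKO wounded. *Zfp750* was 256 and 262, 357 and 337, 458, and 371 and 353, and *Ehf* was 206 and 178, 145 and 175, 90.8, and 186 and 145. Values of *Klf4* and *Zfp750* were highest and those of *Ehf* lowest in the cKO unwounded library. The suprabasal marker sum was highest in that library too, at 9719 CPM against 3677 to 8291 in the other 6, and its part in these values was not tested. *Klf4* rose by 0.92 and *Zfp750* by 0.82 log2, and *Ehf* fell by 1.08 (edgeR Benjamini-Hochberg adjusted p 0.0314, 0.0322 and 0.0314). Leaving out WT unwounded replicate 2 gave adjusted p in edgeR of 0.271 for *Klf4* and 0.217 for *Zfp750*, and leaving out WT unwounded replicate 1 gave 0.101 for *Ehf*. In wounded cKO against WT 3 of the 17 were higher and 0 lower, against 1.96% and 2.08%, and none passed after adjustment.

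Of 25 terminal differentiation genes, 9 had a member and 8 of those were tested. With WT wounding 0 were higher and 2 lower, against 3.18% and 1.67% of all tested genes. In wounded cKO against WT 3 were higher and 0 lower, against 1.96% and 2.08%. In these 2 comparisons the suprabasal marker sum moved the same way, at 6230 and 6768 CPM in WT unwounded, 3677 and 5418 in WT wounded, 9719 in cKO unwounded, and 7007 and 8291 in cKO wounded. In unwounded cKO against WT they went opposite ways, with 0 genes higher and 3 lower, against 5.44% and 6.18% of all tested genes, where the sum was higher. The 6 genes of the sum include *Krtdap* and *Ivl*, which are also in this list, so sum and list are not independent. The part of the sum in these counts was not tested. *Asprv1*, for a protease that processes filaggrin, had a promoter member at chr6:86627818-86628228 and was 48.2 and 46.4 CPM in WT unwounded, 27.5 and 25 in WT wounded, 34.9 in cKO unwounded, and 60.5 and 46.9 in cKO wounded. The WT wounded pair was the lowest and the replicates were close. It was at -0.85 log2 with WT wounding (SE 0.22, P 0.00156) and 1.03 higher in wounded cKO than in wounded WT (SE 0.22, P 0.000282). Here RNA was lower in a group with the promoter peak than in the 2 groups without it.

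Of 36 genes of EGF, TGF-beta, Hippo and Notch signalling, 23 had a member and were tested, with 37 members. With WT wounding 3 were higher and 0 lower, against 3.18% and 1.67% of all tested genes. In wounded cKO against WT these were 0 and 4, against 1.96% and 2.08%, and in unwounded cKO against WT 4 and 1, against 5.44% and 6.18%. *Tgfb2*, for a TGF-beta ligand, was 12.4 and 14.2 CPM in WT unwounded, 17.6 and 15.8 in WT wounded, 25.2 in cKO unwounded, and 8.88 and 4.56 in cKO wounded. The WT wounded and cKO unwounded libraries were above the other 4. It was at -1.31 log2 in wounded cKO against WT (SE 0.35, P 0.00192), and it fell by 1.90 with cKO wounding (edgeR Benjamini-Hochberg adjusted p 0.0373, or 0.235 without cKO wounded replicate 2). *Hes1*, a Notch target, was 118 and 131, 167 and 157, 360.0, and 266 and 147 CPM. *Hes1* rose by 1.53 log2 in unwounded cKO (edgeR Benjamini-Hochberg adjusted p 0.00691). *Cyr61*, a Hippo pathway target, was 306 and 361, 362 and 374, 704, and 432 and 459 CPM and rose by 1.08 (edgeR Benjamini-Hochberg adjusted p 0.00726, or 0.0577 without WT unwounded replicate 1).

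Of 30 junction genes, 20 had a member and were tested, with 3 higher and 1 lower in WT wounding, against 3.18% and 1.67% of all tested genes, and 2 higher and 1 lower in unwounded cKO, against 5.44% and 6.18%. Of 30 cell cycle genes, 8 had a member and were tested, and in unwounded cKO 2 were higher and 3 lower, against the same shares. Of the 21 tested genes of that list without a member 9 were lower. *Mki67*, a proliferation marker, was 1090 and 1540 CPM in WT unwounded, 1140 and 1227 in WT wounded, 495 in cKO unwounded, and 1048 and 845 in cKO wounded. The cKO unwounded library was the lowest, and *Mki67* fell by 1.41 log2 there (edgeR Benjamini-Hochberg adjusted p 0.00557, or 0.0607 without WT unwounded replicate 2). Of 36 chromatin genes 13 had a member, with 0 higher and 0 lower in WT wounding and 1 and 1 in unwounded cKO. Of 29 interferon and inflammatory genes 9 had a member, with 1 higher and 0 lower in WT wounding. Both can be read against the shares just given.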

How the data were processed

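The members and gene lists were chosen with earlier results of these data known. The authors deposited 4 broadPeak lists, in which column 7 is the fold enrichment (a ratio), columns 8 and 9 are -log10 p and -log10 q, and column 5 is a score. The authors deposited raw counts per gene for 7 libraries. The step that made them is not given in the sources used here: the methods name Kallisto, while the tables end with htseq-style tallies. Reads not unique (3.46% to 4.75%) and ambiguous (1.34% to 1.45%) were left out. Peaks were merged with bedtools 2.31.1 on mm10, with GENCODE M21 genes, and sequences came from the GRCm38 genome through pysam 0.24.0. Genes were matched by symbol or synonym. RNA was fitted with edgeR 4.0.16 (TMM, filterByExpr, quasi-likelihood) in R 4.3.3, with DESeq2 1.42.0 as an alternative, and p-values were adjusted by Benjamini-Hochberg over all 14045 tested genes. Wilson 95% intervals and the floor of 3 counts cover counting error only. Tables were made with Python 3.11.15, pandas 2.3.3 and numpy 2.4.6.

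Named genes were the nearest genes of the 10 members with the highest smaller fold enrichment and of the 10 with the highest smaller -log10 p, list genes (up to 4 examples per list with the smallest P for the difference of wounding effects), the 3 largest rises and falls per comparison with unadjusted P under 0.05, mean log2 CPM of at least 1 and groups that do not overlap, the 5 genes with the most members, and 11 study genes. Alternatives changed peak cutoffs, list lengths, overlap, merging distance, promoter and motif windows, normalization, count filter, test, replicate block, and left out each library. Results of some genes are not reported here.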

Additional observations from a re-analysis of the deposited data

Results flagged for a closer look

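The difference between the wounding effect in WT and that in cKO libraries was tested with the edgeR quasi-likelihood test. Among the 3586 tested nearest genes, 6 (0.167%) had a Benjamini-Hochberg adjusted p under 0.05, against 0.185% of all tested genes. Each of the 6 rests on the single cKO unwounded library. The difference was 5.39 log2 for *Akr1c18* and -4.55 for *Stfa3*, described above. It was 1.77 for *Nuak1*, 2.51 for *Hlf* and 1.38 for *Btg2*, and these 3 were chosen after their values were seen.

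*Nuak1*, for an AMPK-related kinase, was 47.7 and 50.5 CPM in WT unwounded, 47.0 and 44.9 in WT wounded, 131 in cKO unwounded, and 34.8 and 37.1 in cKO wounded. *Hlf*, for a PAR bZIP factor, was 6.51 and 7.64, 10.9 and 16.6, 66, and 25.4 and 19.4 CPM. *Btg2*, an antiproliferative gene, was 461 and 461, 674 and 536, 1448, and 672 and 788 CPM. All 3 were far higher in the cKO unwounded library than in the other 6. The edgeR Benjamini-Hochberg adjusted p was 0.0203 for *Nuak1* and 0.0318 for both *Hlf* and *Btg2*. On leaving out a library these reached 0.122 (without cKO wounded replicate 1), 0.212 (without cKO wounded replicate 2) and 0.172 (without WT unwounded replicate 2). *Hlf* had a promoter member at chr11:90389704-90390068, with fold enrichments of 3.33 in WT wounded and 3.67 in cKO unwounded. For *Stfa3* the largest adjusted p in edgeR was 0.129, without cKO wounded replicate 2.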

How the results depend on the processing

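The rule gave 2239 regions at a fold enrichment of at least 4 and 577 with lists of equal length, since both drop peaks, and these overlapped only 1057 and 149 of the 5990 members. The promoter share was 27.5% at q of 0.01 or less, 30.5% at fold 4, 22.5% with equal lists, 24.0% with both peaks covering at least 50% of the region, and 22.8% and 31.2% with promoter windows of 500 and 2500 bases. With the central 200 bases and the whole region, shorter and longer windows gave AP-1 shares of 23.3% and 36.7%, GRHL 5.19% and 10.4%, TEAD 13.1% and 27.5%, RUNX 12.5% and 27.0%, ETS 3.57% and 7.04%, and SP/KLF 17% and 27.1%. RNA counts are given below in the order WT wounding, wounded cKO against WT, unwounded cKO against WT, cKO wounding and difference of wounding effects. Genes at unadjusted P under 0.05 were fewer where fewer genes were counted. Members within 10000 bases gave 101, 110, 272, 215 and 156, fold 4 gave 99, 99, 244, 218 and 138, and the nearest gene of any type gave 148 for WT wounding and 283 for cKO wounding. After adjustment DESeq2 gave 11, 1, 131, 81 and 24, the likelihood ratio test 20, 1, 112, 78 and 24, and no count filter 46, 23, 219, 161 and 66. At least 10 counts in every library gave 0 for WT wounding, 11 for cKO wounding and 0 for the difference. Fits of the compared libraries alone gave 0 for WT wounding, 168 for unwounded cKO and 155 for cKO wounding. Members within 10000 bases gave 0, 33, 21 and 1 for the comparisons other than wounded cKO against WT, the nearest gene of any type 1, 37, 26 and 3, and fold 4 gave 24, 23 and 2 for the last 3. Leaving out 1 library gave 0 to 13, 0 to 8, 17 to 110, 11 to 85 and 1 to 25 after adjustment, and 167 to 316 before it for wounded cKO against WT. Without the cKO unwounded library the last 3 comparisons could not be fitted. The cause was not tested where fewer genes, peaks or bases do not account for it by construction. Over 78 values of named genes, most of them differences of wounding effects, 66 of 955 refits lost an unadjusted P under 0.05 and 25 gained it. Among values outside these 78, that of *Lama3* in wounded cKO against WT changed sign, from -0.61 to 0.07 without WT wounded replicate 2.

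With a replicate block the adjusted counts were 4 for WT wounding, 115 for unwounded cKO, 71 for cKO wounding and 23 for the difference. The pairing of replicate numbers was checked by the correlation of deviations across genes, which was 0.154 between WT unwounded and WT wounded, -0.0386 between the wounded groups and -0.0109 between WT unwounded and cKO wounded. With 2 pairs, and labels that do not say the same animal, the numbers were not taken as pairs. Limits: each accessibility list comes from 1 library whose read counts are not in the peak files, and the cKO unwounded RNA from 1 library whose labels disagree on its replicate number. Within groups, replicate counts spread 30.5, 41.9 and 36.8 times more than counting error in chi-square per degree of freedom. Low counts such as those of *Sema6d* and *Wfdc3* leave wide intervals.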
